A study of Mus musculus with 84 samples.

Results

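The acute phase plasma protein genes described here are 10 genes of the liver's secreted response to inflammation, taken by name from the 37310 gene IDs of the count files. They are the serum amyloid A genes Saa1, Saa2, Saa3 and Saa4, the orosomucoid genes Orm1, Orm2 and Orm3, haptoglobin (Hp), hemopexin (Hpx) and lipocalin 2 (Lcn2). Each symbol was tied to its gene ID through the authors' own table, and all 10 had enough counts to be tested. Liver RNA had been sequenced from pregnant mice of 14 strains that received either TCDD (2,3,7,8-tetrachlorodibenzo-p-dioxin, a persistent ligand of the aryl hydrocarbon receptor, AHR) or the peanut butter vehicle alone. TCDD was given at 0.1 µg/kg per day in 10 daily doses, and the livers were taken on day 11. Mice were 6 to 8 weeks old when dosing started and 7 to 9 weeks old at its end. Both treatments were sampled in 10 inbred strains outside the BXD set (129S1/SVIMJ, NZO/HILTJ, NOD/SHILTJ, A/J, FVB/NJ, BALB/CJ, DBA1/J, C3HeB/FeJ, CBA/J and C57BL6/J), in the 3 BXD lines BXD-40/TyJ, BXD91/2RwwJ and BXD100/RwwJ, and in the Collaborative Cross line CC019/TauUnc. A group is 1 strain with 1 treatment, and 27 of the 28 groups had 3 libraries. The C57BL6/J TCDD group had 2, because its library with the title number 300 was left out of every comparison. Nothing in the labels ties a library to a separate animal beyond its own sample, so the p-values here rest on sample to sample spread, part of which may be technical.

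Hepatocytes make most acute phase proteins, and inflammatory cytokines, chiefly IL-6 and IL-1, drive their genes through the transcription factors STAT3, NF-kappaB and C/EBP. Serum amyloid A proteins ride on high density lipoprotein, and orosomucoids carry small hydrophobic molecules. Haptoglobin binds free hemoglobin, hemopexin binds free heme, and lipocalin 2 binds the iron carriers that bacteria secrete. Of the serum amyloid A genes, Saa1 and Saa2 are the strongly inducible liver genes of the mouse, Saa3 is made mostly outside hepatocytes, including by macrophages and fat, and Saa4 is the constitutive member. In bulk liver RNA, fewer cells of a type and less RNA per cell cannot be told apart.

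Each of the 83 libraries used held between 12974148 and 19689624 counts in genes (median 16220968). Dosing was visible in Cyp1a1, the classical AHR target, whose TCDD libraries lay above the vehicle libraries without overlap in 10 of 14 strains, and in Cyp1a2, the second such gene, in 12 of 14. Neither gene separated the treatments in NZO/HILTJ or CC019/TauUnc, and Cyp1a1 also overlapped in NOD/SHILTJ and 129S1/SVIMJ. Summed levels of 9 hepatocyte markers covered similar ranges, at 65577 to 114107 CPM (CPM, counts per 1000000 counts assigned to genes) in TCDD libraries and 64436 to 115704 CPM in vehicle libraries. The sum of 12 neutrophil markers ran from 1.27 to 19.5 CPM in TCDD libraries (median 3.88) and from 0.772 to 36.4 CPM in vehicle libraries (median 4.62), and none of the 12 was at 0 throughout either treatment. Kupffer cell and macrophage markers, 12 genes, summed to 254.9 to 1164 CPM in TCDD libraries and 191.3 to 2008 CPM in vehicle libraries. A pair of vehicle libraries stood apart by markers of neighbouring organs: BXD-40/TyJ replicate 1 held 598.1 CPM of 7 adrenal cortex markers and 226.6 CPM of 7 adipocyte markers, and A/J replicate 2 held 2096 CPM of 9 skeletal muscle markers and 445.9 CPM of adrenal cortex markers. The library BXD91/2RwwJ TCDD replicate 2 held 397.2 CPM of the skeletal muscle markers, against a median of 1.05 CPM over TCDD libraries and 0.882 CPM over vehicle libraries, and was the lowest of its group for 9 of 10 acute phase genes. A/J vehicle replicate 3 held the 2008 CPM of Kupffer cell and macrophage markers, and the next highest library 1258 CPM. A second pair stood apart by how low Saa1 lay in them. On the log2 scale, 129S1/SVIMJ TCDD replicate 1 lay at −4.45 and CC019/TauUnc vehicle replicate 1 at −2.86 from the group mean. The next lowest, NOD/SHILTJ vehicle replicate 3, lay at −1.74. The pair were the lowest of their groups for 10 of 10 and 8 of 10 genes. This count did not set them apart, since NOD/SHILTJ vehicle replicate 3 also had 10 of 10 and several other libraries 9 of 10. The changes in A/J, BXD-40/TyJ and BXD91/2RwwJ and the averages over strains are given below also without these libraries, except NOD/SHILTJ vehicle replicate 3. The part of the libraries in these changes was otherwise not tested.

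Saa1 and Saa2 lie next to each other on mouse chromosome 7 in opposite orientation, and Orm3 and Orm2 follow each other on chromosome 4. Their promoters are shown because the members of each pair are close copies, which bears on how reads can be told apart, and because all carry a match to the C/EBP letters TTGCNNAA. The sequences are those of RefSeq on GRCm38.p6, a C57BL/6J reference and not the build the counts were made on, and cover 250 bases before to 50 bases after the start of each gene, 5′ to 3′ on the gene's own strand. Capitals mark the C/EBP match. The windows are chr7:46742931-46743230 (minus strand) for Saa1, chr7:46751583-46751882 (plus strand) for Saa2, chr4:63362199-63362498 (plus strand) for Orm2 and chr4:63355908-63356207 (plus strand) for Orm3.
Saa1: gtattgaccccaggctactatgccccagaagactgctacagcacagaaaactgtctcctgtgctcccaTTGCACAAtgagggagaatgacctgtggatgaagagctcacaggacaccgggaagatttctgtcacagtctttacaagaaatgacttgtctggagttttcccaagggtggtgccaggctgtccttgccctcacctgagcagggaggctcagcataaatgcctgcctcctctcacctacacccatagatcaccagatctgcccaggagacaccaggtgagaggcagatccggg
Saa2: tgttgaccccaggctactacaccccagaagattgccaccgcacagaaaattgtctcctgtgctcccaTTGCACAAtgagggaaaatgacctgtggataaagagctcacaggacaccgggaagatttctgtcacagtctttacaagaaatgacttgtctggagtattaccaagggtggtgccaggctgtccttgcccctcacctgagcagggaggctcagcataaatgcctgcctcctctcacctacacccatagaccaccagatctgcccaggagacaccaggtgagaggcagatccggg
Orm2: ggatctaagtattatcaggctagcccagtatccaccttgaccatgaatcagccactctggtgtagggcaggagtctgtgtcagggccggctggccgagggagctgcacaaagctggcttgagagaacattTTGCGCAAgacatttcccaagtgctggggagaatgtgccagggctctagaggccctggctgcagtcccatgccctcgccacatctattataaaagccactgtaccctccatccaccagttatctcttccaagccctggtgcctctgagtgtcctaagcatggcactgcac
Orm3: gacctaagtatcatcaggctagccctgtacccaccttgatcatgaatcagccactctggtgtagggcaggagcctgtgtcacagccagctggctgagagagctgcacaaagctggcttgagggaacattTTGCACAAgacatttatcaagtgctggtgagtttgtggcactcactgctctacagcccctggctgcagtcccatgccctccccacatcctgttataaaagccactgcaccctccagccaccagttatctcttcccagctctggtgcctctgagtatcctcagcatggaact

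The Saa1 and Saa2 promoters were identical at 287 of 299 aligned bases (96%), and those of Orm2 and Orm3 at 263 of 295 (89.2%). The match began 182 bases before the start in Saa1 and 183 bases before it in Saa2, with the same 8 letters. In Orm2 it began 120 bases before the start and in Orm3 121 bases before it. A promoter sequence was at hand for 8 of the 10 genes, not for Orm1 or Hp. The C/EBP letters were found on either strand in 8 of these 8 promoters, against 10.8% of all 32851 promoters of the same length. Saa1 with Saa2, and Orm2 with Orm3, share most of their sequence, so the 8 are not 8 separate occurrences. In the other 4 promoters the match is shown with up to 11 bases on each side, at chr7:46715757-46715786 (minus strand) in Saa3, chr7:46732637-46732666 (minus strand) in Saa4, chr7:105600298-105600327 (minus strand) in Hpx and chr2:32387937-32387966 (minus strand) in Lcn2.
Saa3: ggtaagtgggaTTATGCAAgatcaaacagg
Saa4: accaggaaggaTTGAGCAAgagggactctg
Hpx: tggctggaaatTTGCTGAAgggggtagggg
Lcn2: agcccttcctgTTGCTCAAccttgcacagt

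The matches in Saa3 and Saa4 shown here run on the opposite strand to the gene, 99 and 52 bases before the start, and Saa4 held a second one 245 bases before it. In Hpx the match began 200 bases before the start, and in Lcn2 at base 35 of the 300-base window. The NF-kappaB letters GGGNNNTTCC, the STAT letters TTCNNNGAA and the AHR core GCGTG were found in 0 of 8 promoters on either strand, against 5.56%, 8.3% and 32.4% of all promoters. A match describes letters in the window of 1 strain's genome and not a bound site. Between coding sequences, Saa1 and Saa2 were identical at 95.1% of aligned bases, Orm1 and Orm2 at 89.9%, Orm2 and Orm3 at 88.3% and Orm1 and Orm3 at 86.4%. Of the 50-base stretches of the Saa1 transcript, 13.2% also occur in Saa2, and of those of Orm1, 20.4% occur in Orm2. Values of Saa1 against Saa2 and of Orm1 against Orm2 and Orm3 are therefore uncertain to the extent that reads were assigned to the wrong copy.

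Compared per length of transcript, Hpx and Hp were the most abundant of the 10, and Saa3 the least. The median over strain means was 3698 CPM per kb of transcript in TCDD livers and 3945 in vehicle livers for Hpx, and for Hp it was 2877 in TCDD livers and 3694 in vehicle livers. Saa1 had a median of 384 CPM per kb in TCDD livers and 706 in vehicle livers, and Orm1 577.6 in TCDD livers and 668.2 in vehicle livers. Saa2, Saa4 and Lcn2 lay between 170.4 and 200.3 CPM per kb in TCDD livers and between 187.9 and 280.6 in vehicle livers. The place of Saa4 depends on the length used, since its transcript of 2094 bases is long for its coding sequence. Per kb of coding sequence its level had a median of 1075 CPM in TCDD livers and 1330 in vehicle livers, above Saa1 (639 in TCDD livers and 1175 in vehicle livers) and Orm1 (720.8 in TCDD livers and 833.9 in vehicle livers). Orm2 stood at 57.57 CPM per kb in TCDD livers and 83.76 in vehicle livers, Orm3 at 23.2 in TCDD livers and 26.87 in vehicle livers, and Saa3 at 11.06 in TCDD livers and 11.04 in vehicle livers. The inducible Saa1 and Saa2 covered a wide range from library to library, and the carriers of hemoglobin and heme a narrow one.

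**Figure D1:**
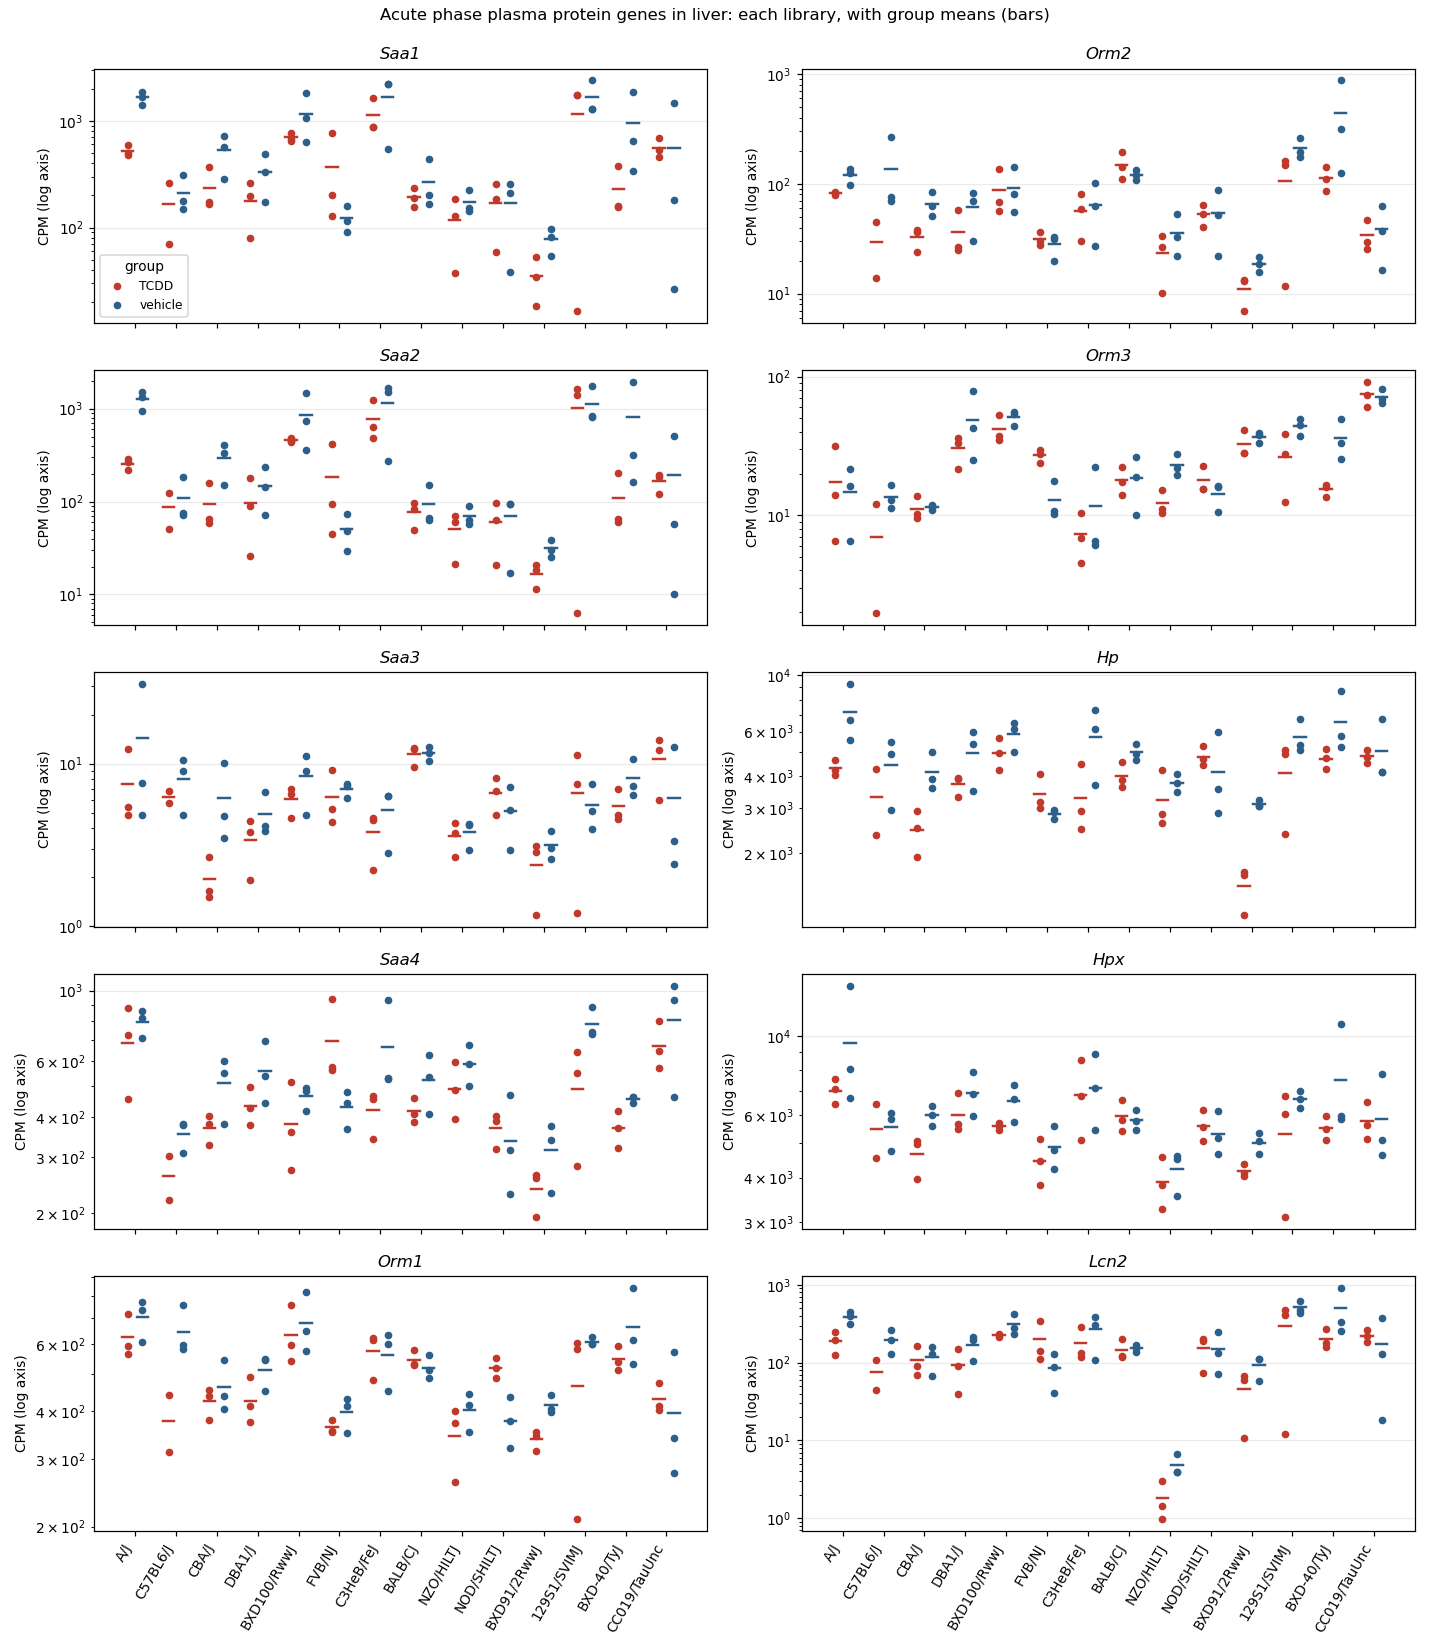
Level of each of the 10 genes in every library (CPM, log axis; red, TCDD; blue, vehicle; bars, group means), by strain. Saa1, Saa2, Saa3, Orm2, Orm3 and Lcn2 spread over more than a factor of 10 between libraries, whereas Hpx in vehicle livers ranged from 3558 to 13831 CPM; Lcn2 in NZO/HILTJ lay far under all other strains.

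Averaged over the 14 strains, the change in TCDD livers against vehicle livers lay under 0 for all 10 genes, and haptoglobin was the one whose fall passed the test. Hp ranged from 1140 to 5665 CPM in 41 TCDD libraries (median 4080) and from 2719 to 9232 CPM in 42 vehicle libraries (median 4941), so the treatments overlapped widely across strains and the comparison was made within them. Its mean log2 change was −0.39 ± 0.08 (SE), with an adjusted p of 0.00447 (edgeR's quasi-likelihood test, Benjamini-Hochberg over 16554 genes), and it was lower in 12 of 14 strains. The call was 1 of 10 genes, against 0.193% of all genes called in this comparison and 0.0362% called lower. It kept its call whichever of the 83 libraries was left out, with adjusted p from 0.00059 to 0.0155.

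The per-strain values of Hp show where the fall lay. In BXD91/2RwwJ livers it stood at 1633, 1140 and 1686 CPM with TCDD, against 3071, 3221 and 3070 CPM with vehicle. A/J livers had 4659, 4046 and 4241 CPM with TCDD and 6692, 5540 and 9232 CPM with vehicle. The treatments did not overlap in either strain, nor in CBA/J (2517, 1935 and 2928 CPM with TCDD, against 3605, 3926 and 4995 CPM with vehicle). BALB/CJ livers had 4552, 3627 and 3860 CPM with TCDD against 4915, 5387 and 4629 CPM with vehicle, and BXD-40/TyJ livers 4712, 5112 and 4260 CPM with TCDD against 8689, 5217 and 5756 CPM with vehicle. These were the 5 strains with every TCDD library under every vehicle library. Of all genes, 5.5% lay so in BXD91/2RwwJ, 9.5% in A/J, 4.63% in CBA/J, 3.53% in BALB/CJ and 11.8% in BXD-40/TyJ. FVB/NJ was the reverse, with 4080, 2998 and 3163 CPM with TCDD, all above 2957, 2898 and 2719 CPM with vehicle (5.29% of all genes lay above there). NOD/SHILTJ was the other strain in which Hp was higher with TCDD, at 4664, 4432 and 5273 CPM against 5994, 3570 and 2871 CPM with vehicle, and there the libraries overlapped. The files of the BXD lines point to another alignment than those of the other strains. Within these sets of strains the log2 change of Hp was −0.58 in the 3 BXD lines alone (adjusted p = 0.364) and −0.34 in the other 11 strains alone (adjusted p = 0.184), under 0 in both without passing the test in either.

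**Figure D2:**
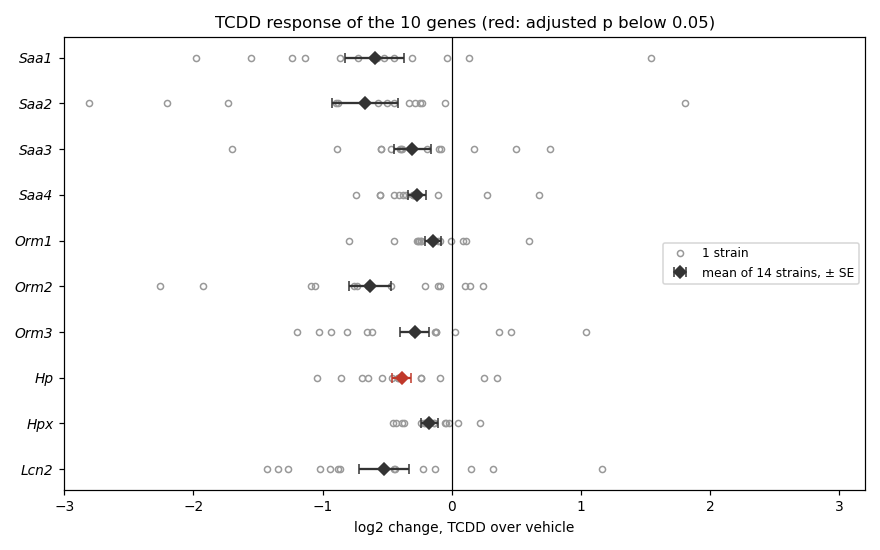
Log2 change of each gene, TCDD over vehicle: open circles are the 14 strains, diamonds the mean over strains with its SE, red where the adjusted p is under 0.05. All 10 means lie under 0, from −0.67 for Saa2 to −0.15 for Orm1, and Hp alone is red.

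Among the serum amyloid A genes, Saa1 and Saa2 had large mean changes with wide errors. Saa1 ran from 16.4 to 1749 CPM in TCDD libraries (median 234.6) and from 26.6 to 2404 CPM in vehicle libraries (median 321.4). Its mean log2 change was −0.59 ± 0.23 (adjusted p = 0.699), and that of Saa2 was −0.67 ± 0.25 (adjusted p = 0.677). Saa1 was lower with TCDD in 12 strains and Saa2 in 13, so neither passed the test in spite of a direction shared by most strains. Saa3 was lower in 11 strains, with a mean log2 change of −0.30 ± 0.14 (adjusted p = 0.882). Saa4, the constitutive gene, had a smaller mean log2 change of −0.27 ± 0.07 with a smaller error, was lower in 12 strains and came nearer to the threshold (adjusted p = 0.0965).

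The orosomucoids, which bind small hydrophobic molecules in plasma, differed in size of change. Orm2 had a mean log2 change of −0.63 ± 0.16 (adjusted p = 0.0939) and was lower in 11 strains. In 5 of them it was lower without overlap, against 6.12% of all gene by strain combinations. Orm1, the most abundant of the family, had a mean log2 change of −0.15 ± 0.06 (adjusted p = 0.751), and Orm3 one of −0.29 ± 0.11 (adjusted p = 0.727). Hemopexin had a mean log2 change of −0.17 ± 0.07 (adjusted p = 0.713) with 12 strains lower, and Lcn2 one of −0.52 ± 0.19 (adjusted p = 0.645) with 11 strains lower. Across the 10 genes the median of the mean changes was −0.35 on the log2 scale, against −0.01 over all genes tested, of which 52.9% lay under 0. Of the 10, 5 were lower in at least 12 of 14 strains, against 0.61% of all genes, and 10 were lower in at least 10 strains, against 9.54% of all genes. The 10 genes moved together from library to library, as given below, so they are not 10 separate observations of the direction. Markers of several other cell types lay mostly under 0 in the same average: 9 of 10 neutrophil markers tested (median −0.37), 11 of 12 of Kupffer cells and macrophages (−0.04), 6 of 6 of adipocytes (−0.57), 6 of 6 of the exocrine pancreas (−0.46) and 7 of 7 of the adrenal cortex (−1.17), with 0 called by edgeR. Those of lymphocytes (6 of 10 under 0, median −0.04), skeletal muscle (6 of 9, −0.21) and hepatocytes (3 of 9, 0.02) were mixed. Several of these markers had SEs too large for any call, such as 20319 for Cyp11a1, 2506 for Adipoq, 6341 for Cel and 2190 for Ltf. The medians and signs of their lists rest in part on such values. Without the A/J and BXD-40/TyJ vehicle libraries that held markers of other organs, the median was −0.35 for the 10 genes, all 10 under 0 with 1 called, −0.23 for the neutrophil markers with 9 of 10 under 0, and −0.09 for adipocyte, −0.12 for pancreas and −0.14 for adrenal markers, of which 4, 3 and 3 were still tested. In that fit 0 of 9 skeletal muscle markers lay under 0 (median 0.80), and 4 of 9 of hepatocytes (0.02). Of lymphocyte markers 6 of 10 lay under 0 (−0.07), and of Kupffer cell and macrophage markers 11 of 12 (−0.07). The part of neutrophil RNA in the changes was not tested. With DESeq2 in place of edgeR, 3 of the 10 were called (against 0.309% of all genes), namely Hp, Orm2 (adjusted p = 0.0257) and Saa4 (adjusted p = 0.0429).

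Within single strains, 115 of the 140 gene by strain changes lay under 0, and 0 of 140 passed the test in edgeR, against 0.327% of all such combinations, and 0 in DESeq2. Without adjustment, 21 of 140 had p under 0.05, against 6.25% of all combinations, and 18 of the 21 were lower with TCDD. In 29 of 140 combinations every TCDD library lay under every vehicle library, against 6.12% of all combinations, and in 4 every TCDD library lay above, against 5.91%. The smallest unadjusted p belonged to Hp in BXD91/2RwwJ, with a log2 change of −1.04 ± 0.29 (adjusted p = 0.415). Orm2 in BXD-40/TyJ had a log2 change of −1.92 ± 0.61 (adjusted p = 0.156), and one of −0.98 (adjusted p = 0.664) without vehicle replicate 1, the library with markers of other organs. Orm1 in C57BL6/J had a log2 change of −0.79 ± 0.26 (adjusted p = 0.564).

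In 12 of 14 strains the median change of the 10 genes was under 0, and in 7 strains all 10 were. Those 7 were C57BL6/J, CBA/J, DBA1/J, BXD100/RwwJ, NZO/HILTJ, BXD91/2RwwJ and BXD-40/TyJ. They did not share a level of Cyp1a1, which was 1245 to 1901 CPM over the TCDD libraries of C57BL6/J, CBA/J, BXD100/RwwJ and BXD91/2RwwJ, but at most 16.1 CPM in DBA1/J, 2.75 CPM in BXD-40/TyJ and 1.28 CPM in NZO/HILTJ. Cyp1a2 did rise in DBA1/J (1451 to 2161 CPM with TCDD, 474.7 to 675.9 CPM with vehicle). It also rose in BXD-40/TyJ (1197 to 1781 CPM against 480 to 509.1 CPM), but overlapped in NZO/HILTJ (446 to 779.4 CPM against 408.1 to 562.4 CPM). The lowest median change was that of BXD-40/TyJ, at −0.87 on the log2 scale, followed by CBA/J at −0.70. Without BXD-40/TyJ vehicle replicate 1 the median of that strain was −0.45, with all 10 genes under 0. FVB/NJ went the other way with a median of 0.46 and 7 genes higher, and NOD/SHILTJ with a median of 0.24 and 9 genes higher. CC019/TauUnc was split, with 6 genes lower and 4 higher and a median of −0.04.

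**Figure D3:**
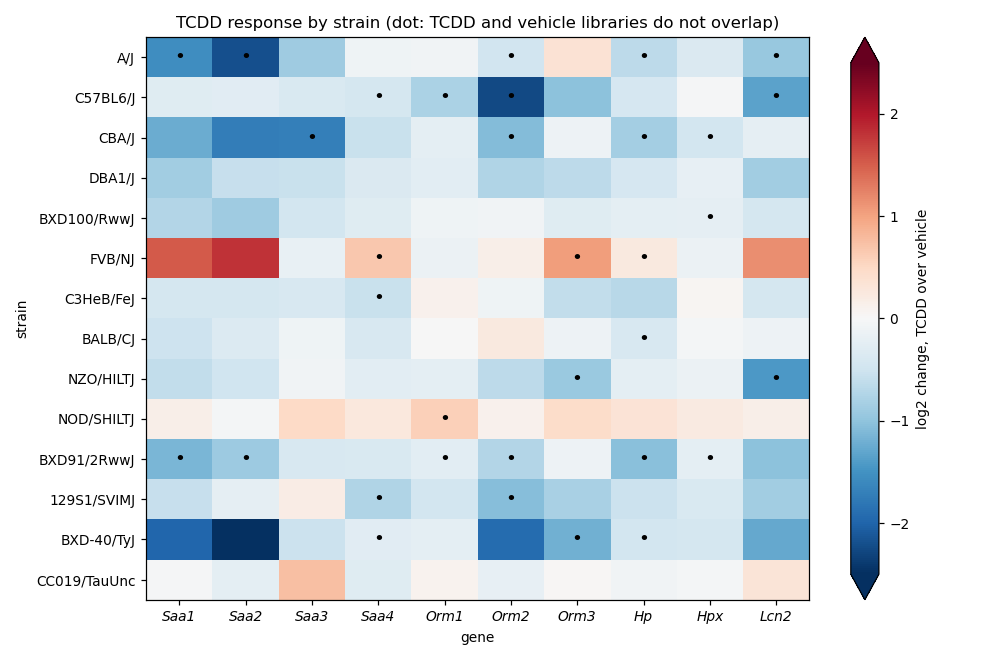
Log2 change, TCDD over vehicle, of the 10 genes (columns) in the 14 strains (rows); blue is lower and red higher with TCDD, and a dot marks a strain in which the libraries of the treatments did not overlap. Most cells are blue, FVB/NJ and NOD/SHILTJ are mostly red, and BXD91/2RwwJ holds 6 dots.

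BXD91/2RwwJ, a recombinant inbred line of C57BL/6J and DBA/2J descent, had the most genes without overlap: Saa1, Saa2, Orm1, Orm2, Hp and Hpx were lower in every TCDD library than in any vehicle library, 6 of 10 against 5.5% of all genes. Saa1 stood at 34.2, 18.5 and 52.8 CPM with TCDD, against 54.4, 96.3 and 82.4 CPM with vehicle in this line. Orm2 was at 13.4, 6.88 and 13.03 CPM with TCDD and 18.8, 21.7 and 15.7 CPM with vehicle. Both genes were the lowest of any strain already in vehicle livers. Without TCDD replicate 2, the library with skeletal muscle markers, the same count of 6 genes did not overlap, against 8.81% of all genes with 2 TCDD libraries, and the log2 change of Saa1 was −0.84 in place of −1.14, that of Lcn2 −0.56 in place of −1.02 and that of Hp −0.90 in place of −1.04. The A/J strain had 5 of 10 genes without overlap (Saa1, Saa2, Orm2, Hp and Lcn2), against 9.5% of all genes. Saa1 in A/J livers was 598.1, 497 and 479.3 CPM with TCDD and 1877, 1679 and 1410 CPM with vehicle. Saa2 there was 264.8, 283.7 and 216.3 CPM with TCDD, against 1493, 1339 and 946.5 CPM with vehicle. The log2 changes were −1.56 ± 0.86 for Saa1 and −2.21 ± 0.97 for Saa2 (adjusted p = 0.732 and 0.558). When A/J was fitted alone, with the spread of its own 6 libraries, both were called (adjusted p = 0.00829 for Saa1 and 0.00301 for Saa2), against 0.0648% of all genes in that fit. Without vehicle replicate 2, which held muscle and adrenal markers, the changes were −1.61 for Saa1 and −2.22 for Saa2 in the fit of all strains (adjusted p = 1 and 0.945), both were called with A/J fitted alone (adjusted p = 0.0195 and 0.0156), and 7 of 10 genes did not overlap, against 13.3% of all genes. Without vehicle replicate 3, with the highest macrophage marker sum, Saa1 and Saa2 stood at −1.64 and −2.35 and 5 genes did not overlap (21.2% of all genes), but the median of the 10 genes was −0.24 in place of −0.56 and the change of Saa3 was 0.39 in place of −0.89. With A/J fitted alone, leaving out each of its libraries (a check chosen after seeing the data) kept both calls except that of Saa1, which was lost without TCDD replicate 2 (adjusted p = 0.0837) or TCDD replicate 3 (0.0699).

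In C57BL6/J, the strain of the mouse reference genome, 4 of 10 genes were lower without overlap (Saa4, Orm1, Orm2 and Lcn2), against 6.69% of all genes with 2 TCDD libraries. Orm2 was 13.8 and 44.9 CPM with TCDD, against 75.2, 69.4 and 267.7 CPM with vehicle, and Lcn2 was 107.7 and 44.96 CPM with TCDD against 128.2, 195.5 and 264.5 CPM with vehicle. With the library left out put back, Orm1 (log2 change −1.02, adjusted p = 0.0292) and Orm2 (−2.69, adjusted p = 0.0386) were called in this strain, 2 of 10 against 0.401% of all genes. CBA/J also had 4 genes lower without overlap (Saa3, Orm2, Hp and Hpx), against 4.63% of all genes. Saa3 in CBA/J was 2.67, 1.52 and 1.65 CPM with TCDD, against 3.51, 10.1 and 4.75 CPM with vehicle. BXD-40/TyJ had 3 (Saa4, Orm3 and Hp), against 11.8% of all genes in that strain. There Orm3 was 16.6, 16.1 and 13.5 CPM with TCDD and 49.5, 25.3 and 33.2 CPM with vehicle, and vehicle replicate 1, which held markers of other organs, was highest of its group for all 10 genes. Without it the same 3 genes did not overlap, against 15.1% of all genes, with a log2 change of −0.30 for Saa4, −0.94 for Orm3 and −0.24 for Hp in place of −0.29, −1.20 and −0.46.

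The remaining strains gave 2 genes or fewer in either direction, apart from FVB/NJ. In 129S1/SVIMJ, Saa4 and Orm2 were lower without overlap, against 3.16% of all genes, and in NZO/HILTJ Orm3 and Lcn2, against 3.1%. Lcn2 in NZO/HILTJ was 0.976, 3.02 and 1.43 CPM with TCDD and 3.90, 6.66 and 3.93 CPM with vehicle. Single genes did so in BXD100/RwwJ (Hpx, against 4.48% of all genes), C3HeB/FeJ (Saa4, 3.55%) and BALB/CJ (Hp, 3.53%). FVB/NJ had Saa4, Orm3 and Hp higher in every TCDD library, 3 of 10 against 5.29% of all genes. Orm3 in FVB/NJ was 27.8, 23.9 and 29.5 CPM with TCDD, against 10.3, 10.8 and 17.8 CPM with vehicle. Saa2 there was 414, 44.9 and 93.4 CPM with TCDD and 29.5, 47.9 and 74.2 CPM with vehicle, so the libraries overlapped, and replicate 1 with TCDD was the highest of its group for 9 of 10 genes. In NOD/SHILTJ, Orm1 was 489.6, 520.9 and 550.3 CPM with TCDD and 435.4, 376.7 and 321.2 CPM with vehicle, the 1 gene there without overlap, against 5.83% of all genes. Vehicle replicate 3 of NOD/SHILTJ was the lowest of its group for 10 of 10 genes.

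Whether the TCDD change itself differed between strains was tested over all 14 at once. It was called for 0 of 10 genes in edgeR, against 0.0664% of all genes, and DESeq2 also called 0. The smallest adjusted p was 0.428 for Orm3 and the largest 0.981 for Hpx. Unadjusted p-values under 0.05 were found for Orm3 (0.0220) and Saa4 (0.0455), against 9.33% of all genes. The opposite signs of FVB/NJ and NOD/SHILTJ were therefore not shown to differ from the other strains by this test.

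In vehicle livers, by contrast, the strains differed in all 10 genes, which is 10 of 10 called against 49.6% of all genes (edgeR, 14 vehicle groups together). Adjusted p ran from 2.69e-09 for Orm3 to 0.0167 for Saa3. The alignments used references that differed by strain, so strain and mapping go together in every comparison between strains. The part of mapping in these differences was not tested. The ratio of the highest to the lowest strain mean was 106 for Lcn2, 40.01 for Saa2, 23.6 for Orm2 and 21.4 for Saa1, but 2.57 for Saa4, 2.503 for Hp, 2.26 for Hpx and 1.87 for Orm1. Saa3 and Orm3 lay between, at 4.56 and 6.30. Strains that were neighbours in the order of means mostly overlapped in their libraries. Of 13 neighbouring pairs per gene, the libraries were apart in 1 pair for Orm3, 2 for Hp and 1 for Lcn2, and in 0 for the other 7 genes. Across the 14 strains, the order of strain means with TCDD correlated with that with vehicle at a Spearman rho of 0.82 for Saa1, 0.72 for Orm2, 0.67 for Lcn2, 0.60 for Hp and Orm1 and 0.54 for Saa3, the lowest of the 10, as a description over groups that share their strain.

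Each strain was then set against the mean of the other 13 in vehicle livers. Of the 140 combinations 36 were called, 24 higher and 12 lower, in 12 of 14 strains, against 9.57% of all gene by strain combinations. In 8 of the 36 the call held whichever of the strain's 3 libraries was left out, and these 8 are the ones the next sentences give in full. A/J stood high in Saa1, with vehicle libraries at 1877, 1679 and 1410 CPM, and the log2 difference from the other 13 was 2.08 ± 0.50 (adjusted p = 0.00224). It also stood high in Saa2, by 2.68 ± 0.53 (adjusted p = 0.000135). C3HeB/FeJ was high in Saa2 (275.9, 1669 and 1523 CPM) by 2.66 on the log2 scale. 129S1/SVIMJ was high in Orm2 (263.1, 196.7 and 177.1 CPM) by 1.65 and in Lcn2 (470.9, 629.1 and 436.5 CPM) by 1.88. BXD-40/TyJ was high in Orm2 (880.4, 124.3 and 318.2 CPM) by 2.70 ± 0.33 (adjusted p = 8.52e-09), and its replicate 1, which held the adrenal and adipocyte markers, was the highest. Without that replicate the difference was 1.76 on the log2 scale (adjusted p = 0.00574). CC019/TauUnc was high in Orm3 (68.4, 81.9 and 64.9 CPM) by 1.75 ± 0.26 (adjusted p = 3.62e-07), and every other vehicle library of any strain but 1, from DBA1/J at 78.2 CPM, lay under its lowest. NZO/HILTJ was low in Lcn2, at 3.90, 6.66 and 3.93 CPM against 18.1 to 917.5 CPM over all other vehicle libraries, a log2 difference of −5.42 ± 0.81 (adjusted p = 7.23e-07).

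**Figure D4:**
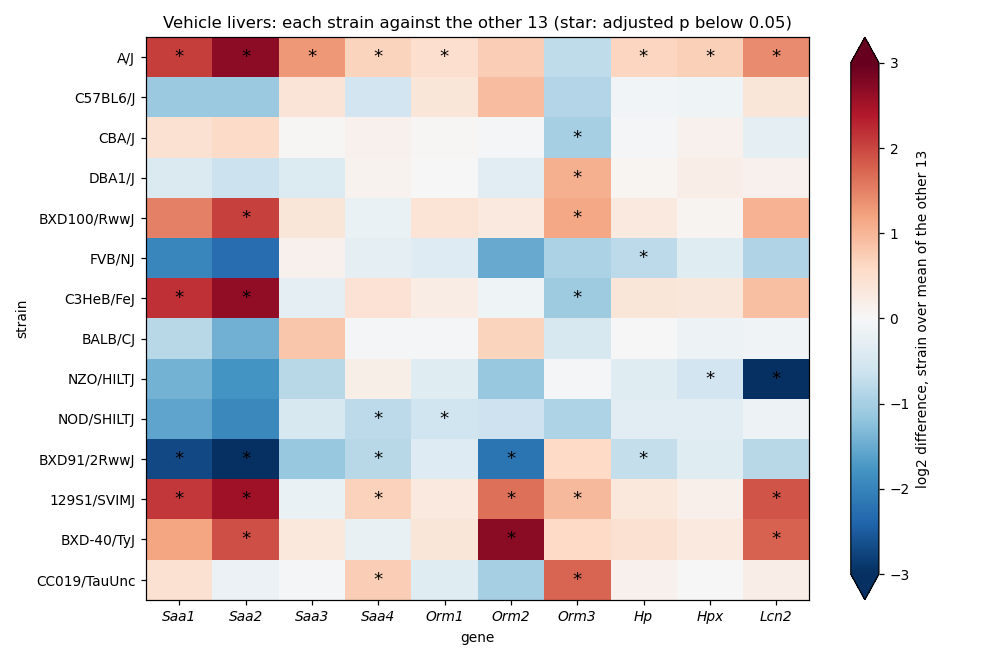
Log2 difference of each vehicle group from the mean of the other 13 vehicle groups, for the 10 genes (columns) and 14 strains (rows); a star marks an adjusted p under 0.05. A/J carries 8 stars, all higher; BXD91/2RwwJ carries 5, all lower; the darkest cell is Lcn2 in NZO/HILTJ at −5.42, which lies beyond the end of the colour scale.

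The other 28 calls each lost their significance in at least 1 fit without a library of the strain. In A/J they were Saa3, Saa4, Orm1, Hp, Hpx and Lcn2, all higher, so that 8 of 10 genes were called higher in that strain against 7.91% of all genes. The Saa3 call rested on vehicle replicate 3 (7.55, 4.81 and 30.9 CPM), the library with the highest Kupffer cell and macrophage marker sum, and without it the log2 difference was 0.01 in place of 1.30 (adjusted p = 1). Without the same library the difference of Hp was 0.38 in place of 0.65 (adjusted p = 0.437) and that of Hpx 0.30 in place of 0.72 (adjusted p = 0.495). BXD91/2RwwJ was called lower in Saa1 (log2 difference −2.70), Saa2 (−3.07), Saa4 (−0.82), Orm2 (−2.20) and Hp (−0.71), 5 of 10 against 2.72% of all genes called lower there. Saa2 in that line was 25.1, 39.1 and 30.3 CPM with vehicle. In 129S1/SVIMJ, Saa1, Saa2, Saa4 and Orm3 were called higher, in C3HeB/FeJ Saa1, and in BXD100/RwwJ Saa2 and Orm3. BXD-40/TyJ was called higher in Saa2 and Lcn2, and without vehicle replicate 1 the difference was 0.25 in place of 1.93 for Saa2 (adjusted p = 0.964) and 1.05 in place of 1.76 for Lcn2 (adjusted p = 0.443). Orm3 was called higher in DBA1/J and lower in CBA/J and C3HeB/FeJ. The other calls were Saa4 and Orm1 lower in NOD/SHILTJ, Hp lower in FVB/NJ, Hpx lower in NZO/HILTJ and Saa4 higher in CC019/TauUnc. C57BL6/J and BALB/CJ had no call.

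The copies within a family kept different proportions in different strains. The count of Saa1 over that of Saa2 had a median of 2.22 in TCDD libraries and 2.13 in vehicle libraries. In vehicle livers its strain medians ran from 1.26 in A/J to 2.91 in CC019/TauUnc. The count of Orm1 over that of Orm2 had a median of 10.5 in TCDD libraries and 8.00 in vehicle libraries, with strain medians in vehicle livers from 1.93 in BXD-40/TyJ to 21.7 in BXD91/2RwwJ. The count of Orm1 over that of Orm3 had a median of 24.6 in TCDD libraries and 20.04 in vehicle libraries. Strain references differed in the alignments, as the file names show, and the part of mapping in these proportions was not tested.

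Libraries of the same group differed most in the inducible genes. The pooled SD of log2 CPM around the group means was 1.37 for Saa2, 1.21 for Saa1, 0.99 for Lcn2 and 0.79 for Orm2, which ranks them at the 99.4th, 98.8th, 92.8th and 83rd percentile of all genes tested. Saa3 had 0.69 and Orm3 0.55. Hp (0.36), Saa4 (0.33), Hpx (0.32) and Orm1 (0.28) lay under the median of all genes, 0.38. The gene that passed the test in the TCDD average was thus among the 4 with the smallest spread, and Saa1 and Saa2, with the larger mean changes, had the greatest spread.

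These deviations ran in parallel across genes. Over the 83 libraries, deviations from the group means correlated at r = 0.98 between Saa1 and Saa2, 0.92 between Saa1 and Lcn2, 0.89 between Saa2 and Lcn2, 0.87 between Orm1 and Orm2 and 0.86 between Hp and Hpx. Orm3 was the least tied to the others, at r = 0.19 to 0.49. These are descriptions over libraries that share their groups' means and their depth. The library 129S1/SVIMJ TCDD replicate 1 shows how far they went together: Saa1 was 16.4 CPM there and 1749 and 1743 CPM in the other TCDD libraries of the strain, and Lcn2 was 12.0 CPM there and 408.3 and 471.4 CPM in the others. Cyp1a2 went the opposite way in these libraries, at 2095 CPM in replicate 1 and 598.6 CPM in the lowest of the others. CC019/TauUnc vehicle replicate 1 had Saa1 at 26.6 CPM, against 1471 and 181.7 CPM in its group, and the highest Cyp1a2 of that group at 1003 CPM. Over all 83 libraries the deviations of Cyp1a2 correlated with those of the 10 genes at r = −0.60 for Saa1 to −0.20 for Orm3, and without the 2 libraries farthest out at −0.42 to −0.10. The part of these libraries in the mean changes can be read from the fit without both, in which the log2 change was −0.59 for Saa1, −0.38 for Hp (adjusted p = 0.00434) and −0.62 for Orm2 (adjusted p = 0.0404, a call that all libraries together did not give, in a fit that called 0.188% of all genes). Marker sums of cell types also moved with the deviations. For the hepatocyte sum r was under 0 for all 10 genes, from −0.56 for Orm1 and −0.52 for Orm2 to −0.14 for Hpx. That sum includes Alb, Apoa1 and Ttr, which also belong to the plasma proteins that fall in an acute phase. It also includes Serpina1c, of the further acute phase protein genes, so it does not measure hepatocyte content alone. For the neutrophil sum it ran from 0.07 for Saa4 to 0.49 for Orm2, and for the Kupffer cell and macrophage sum from −0.01 for Saa4 to 0.39 for Saa3. The part of these cell types in the results was not tested.

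**Figure D5:**
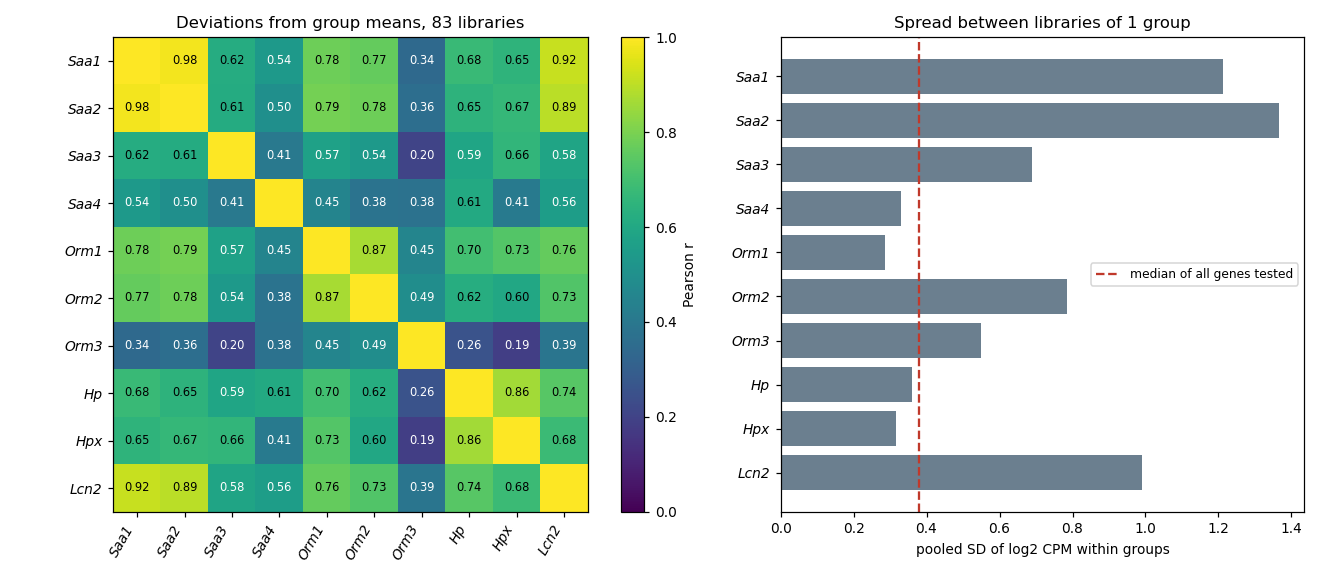
Left, Pearson r of the deviations from the group means between each pair of genes over 83 libraries; right, pooled SD of log2 CPM within groups for the 10 genes, with the median of all genes tested as a dashed line. Saa2, Saa1 and Lcn2 have the longest bars, and Saa1 with Saa2 is the closest pair at 0.98.

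The genes outside the set whose deviations followed each member most closely included several acute phase proteins outside it. For Saa1 they were Slc41a2, a magnesium transporter (r = 0.82), Lrg1, a leucine-rich plasma glycoprotein (0.81), and Fgl1, a fibrinogen-like protein (0.80). Their Spearman rho, on which the libraries farthest out weigh less, was 0.61, 0.74 and 0.57. Lrg1 was among the first 3 for Saa1, Saa2, Saa4, Orm1, Hp and Lcn2. Apcs, the serum amyloid P component, led for Orm1 (0.78), Lbp, the lipopolysaccharide binding protein, for Hp (0.84), and Tmem176b for Hpx (0.89). Saa3 stood with Cxcl9 (r = 0.67, rho = 0.47), Il18bp and Bst2, which interferon induces, and Orm3 with Cxcl1, a neutrophil chemokine (r = 0.61, rho = 0.65), Prg4 and Cyp2c70. Saa4 was nearest to C8a, a complement component (0.62), Orm2 to Prtn3, a protease of myeloid cells (0.71) and Lcn2 to Lrg1 (0.83).

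Other genes of the pathway had medians nearer to 0. Of 32 further acute phase protein genes tested, 0 were called in the TCDD average by edgeR, against 0.193% of all genes, 7 had an unadjusted p under 0.05 (against 5.57% of all genes), of which 5 lay under 0 and 2, the antitrypsins Serpina1a (0.11) and Serpina1b (0.11), above 0, 26 of the 32 lay under 0 and the median log2 change was −0.10. The 3 with the smallest p were Steap4, a metal reductase (−0.22), Itih3, an inter-alpha-trypsin inhibitor heavy chain (−0.14), and the fibrinogen gene Fgg (−0.12). Of 14 plasma proteins that fall in an acute phase, 0 were called (edgeR; 0 with an unadjusted p under 0.05), 7 lay under 0 and the median was 0.00. Of 23 signalling and transcription factor genes, among them Stat3, Cebpb and Nfkb1, 0 were called (edgeR; 2 with an unadjusted p under 0.05, both under 0, against the same 5.57%) and 17 lay under 0, with a median of −0.05. Socs3, which restrains STAT3 signalling, had the smallest p of these, with a log2 change of −0.36 ± 0.13 (adjusted p = 0.532).

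The authors' deposited table gives log2 fold changes within each strain, whose sign for Cyp1a1 reads as TCDD over vehicle. In the authors' deposited table Saa2 was under 0 in 13 of 14 strains, Saa1, Saa4 and Hpx in 12, Saa3, Orm1, Orm2, Hp and Lcn2 in 11 and Orm3 in 10. An adjusted p under 0.05 appears in the authors' deposited table for 2 of the 140 values, Orm1 (−0.99, adjusted p = 0.00619) and Orm2 (−2.69, adjusted p = 0.00395), both in C57BL6/J. For Hp in C57BL6/J the authors' deposited table has 0.02, and the fit without the library left out gave −0.42 ± 0.32. Which libraries entered the authors' values is not given in the sources used here, and they may include that library: with it put back, the fit gave −0.02 ± 0.29 for Hp, −1.02 for Orm1 and −2.69 for Orm2.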

How the data were processed

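Liver RNA-seq of 84 libraries was used as deposited. The submitters' processing notes name FastQC 0.11.5 for read quality, Trimmomatic 0.38 for trimming, Bowtie2 2.3.2.25 for alignment, HTSeq 0.6.1 for counting, DESeq2 (version given as 3.8) and the build mm9. The kit (NEBNext Ultra RNA) does not mark strand, per the labels' protocols. File names refer to strain-specific references. Multiply aligned reads made up 3.74% to 4.35% in 18 BXD libraries and 7.80% to 10.2% in the other 65 used. The deposited count files hold whole-number read counts per gene; reads in no gene (46.7% to 52.6%) and ambiguous reads (0.636% to 1.41%) stayed out. The authors' table holds, for each strain, their log2 fold changes with p-values.

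Counts of 83 libraries were fitted in R 4.3.3 with edgeR 4.0.16 (TMM factors 0.794 to 1.19, filterByExpr, which kept 16554 of 37310 genes, robust quasi-likelihood, 28 groups; common dispersion 0.0618). A call is a Benjamini-Hochberg adjusted p under 0.05 over all genes of a contrast. SEs are the fitted log2 change over the square root of F. CPM use gene totals without TMM. Within-group deviations for the spread, the pairs of genes and the like genes use TMM-scaled log2 CPM with a prior count of 1. Those correlated with Cyp1a2 and with the marker sums use the log2 of CPM plus 1, without TMM. Replicates are numbered in accession order. The 82 within-group pairs differed by at least 13.64 times counting error (chi-square per degree of freedom), so none was a duplicate. Scripts were tested on simulated data. All 10 genes are named; like genes are the 3 with the highest r, Gm and Rik names passed over; for lists, calls and the 3 smallest p. The genes and lists were chosen with earlier results of these data known. Transcript lengths and coding sequences are from GENCODE M21, promoters from RefSeq. DESeq2 1.42.0, other scaling, no filter, no robust step, other library sets and leaving out each library were tried.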

Additional observations from a re-analysis of the deposited data

Results flagged for a closer look

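The C57BL6/J TCDD library left out of the comparisons (replicate 3, with 9122406 counts in genes) had Hp at 6397 CPM, above the other TCDD libraries of the strain (2357 and 4293 CPM) and above its vehicle libraries (2955 to 5439 CPM). It drew attention because no comparison used this library and its Hp level exceeded every control. The other genes did not share this, and 8 of 10 were under all 3 vehicle libraries. Among them were Orm2 at 5.04 CPM against 69.4 to 267.7 CPM and Lcn2 at 3.62 CPM against 128.2 to 264.5 CPM. The share of all genes that lay so in this library was not computed, so the 8 are a description only. Its count in genes was also under the lowest of the libraries used, 12974148.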

How the results depend on the processing

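No paired analysis was possible because replicate numbers follow the order of accessions. In the TCDD average, where 1 of 10 genes was called, DESeq2 called 3, the fit without the 129S1/SVIMJ TCDD and CC019/TauUnc vehicle libraries lowest in Saa1 (chosen after seeing the data) called 2, and the 3 BXD lines alone and the other 11 strains alone called 0 each; leaving out each library in turn gave 1 to 2. All 100 mean changes under these and the other settings stayed under 0. Within strains, where 0 of 140 were called, the fit with C57BL6/J TCDD replicate 3 called 2, that without the low libraries 1 (Orm1 in NOD/SHILTJ, log2 change 0.59, adjusted p = 0.0483) and strains fitted alone 2 (Saa1 and Saa2 in A/J). In NOD/SHILTJ the fit without the low libraries called 4.45% of all genes, and the main fit 3.62%. With each library left out in turn from the fit of all strains, only that library's own strain was tested again, and 0 were called. The test of strain by TCDD gave 0 under every setting run, each left-out library included. Vehicle strains differed in 10 genes under every such setting, and in 9 to 10 with a library left out (9 without A/J vehicle replicate 3). Calls of 1 strain against the other 13 numbered 36, and 32 to 47 under other settings. They numbered 31 to 36 with a vehicle library left out, where only its own strain was tested again. Over all genes, DESeq2 called 51 in the TCDD average, 294 for strain by TCDD and 1437 within strains, where edgeR called 32, 11 and 758. Fits without a library reuse the dispersion trend of all libraries. With 3 libraries a group, Saa1 and Saa2, whose SD within groups exceeds 1 on the log2 scale, limit what single strains can show. Causes of these differences between settings were not tested.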

Other observations

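Of 9 genes that receive or clear these proteins, 0 were called by edgeR, 1 had an unadjusted p under 0.05 (against 5.57% of all genes), and 8 lay under 0 in the TCDD average, with a median log2 change of −0.04. Hmox1, the heme oxygenase that breaks down heme delivered by hemopexin, had the smallest p, with a log2 change of −0.23 ± 0.09 (adjusted p = 0.713). Lrp2 (megalin), an endocytic receptor, had the lowest value, a log2 change of −0.67 ± 0.34 (adjusted p = 0.883). Lrp1, the hemopexin receptor, had one of −0.04 ± 0.08, and Cd163, the haptoglobin to hemoglobin scavenger receptor of macrophages, one of −0.06 ± 0.11. Of 8 cytokine genes that drive the response, 3 had enough counts to be tested (Il1a, Il1b and Tnf), and Il6 was among the 5 that did not. Of the 3 tested, 0 were called by edgeR and 0 had an unadjusted p under 0.05. All 3 lay under 0, with a median log2 change of −0.26 and SEs from 0.12 for Il1a to 0.34 for Tnf.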
